A study of Mus musculus with 8 samples.

Results

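The nuclear-encoded factors that transcribe mitochondrial DNA (mtDNA), replicate it and process its RNA were examined in mouse hearts with a muscle-specific knockout of Tefm, one of these factors. They were 35 listed genes, matched by symbol and gene ID among the 49584 features of the count files. Of these, 34 held enough counts to test among 17891 features tested, and Mterf1b did not. Total RNA of crude heart mitochondria had been sequenced from 4 control mice (L/L, labelled Tefm +/+) and 4 knockout mice (L/L, cre, labelled Tefm -/-). All 8 animals are L/L, taken here as carrying 2 loxP-flanked Tefm alleles, and the knockouts also carried cre under the muscle creatine kinase promoter. This promoter drives cre in striated muscle, the heart included, so fibroblasts, endothelium and other cells of the heart should keep an intact gene. The sources used here give no age for the mice.

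The genes of mtDNA are read by a single-subunit RNA polymerase, POLRMT, which needs TFAM and TFB2M to start and TEFM to keep elongating. Each strand is copied as a long precursor that is cut at its tRNAs, and the mRNAs are then polyadenylated, stabilised by RNA-binding proteins or degraded. Short transcripts that end early also serve as primers for mtDNA replication, so transcription and replication share parts of this machinery. All of these proteins are made from nuclear genes and imported.

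The libraries held 26268804 to 27403415 counts in controls and 21108165 to 25393933 in knockouts. RNA of mtDNA took 73.2% ± 0.731 of the counts in the control group and 46.3% ± 8.99 among knockouts (SD, n = 4 each), and knockout replicate 1 stood apart from the other knockouts at 59.3%. The defining markers of heart muscle cells were abundant in both groups. The 8 genes of that list summed to 56600 to 60144 normalised CPM in controls and 36213 to 45839 in knockouts. Normalised CPM are counts scaled to a common TMM-adjusted library size. Of the 8 genes, 6 fell and 1 rose at an edgeR adjusted p under 0.05, against 23.9% and 26.1% of all tested genes. Markers of other cells were present too, in crude mitochondria that carry RNA of other compartments. The 7 fibroblast markers summed to 230 to 240 CPM in controls and 243 to 451 in knockouts, where knockout replicate 1 was the lowest. Of these 7 markers 4 rose and 0 fell. The 5 endothelial markers summed to 329 to 348 CPM in controls and 292 to 330 in knockouts, and 1 rose and 2 fell. The 6 macrophage and leukocyte markers summed to 91.5 to 134 CPM in controls and 65.4 to 101 in knockouts, and 0 rose and 3 fell. The 6 markers of smooth muscle and pericytes summed to 527 to 549 and 478 to 525, and 1 rose and 1 fell. The 5 of red cells summed to 182 to 457 and 172 to 905, the last in knockout replicate 1, and 0 rose or fell at the threshold. In a bulk sample such as this, fewer cells of a type and less RNA per cell cannot be told apart. The part of these markers in the results below was not tested.

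The start regions of these genes were compared in sequence first. RefSeq windows of 300 bases (250 before to 50 after a start site, build GRCm38.p6) were on hand for 31 of the 35 factors. The core site of the ETS family of transcription factors (CCGGAAG, searched on both strands), the family of GABPA that regulates many mitochondrial genes, lay in the windows of 16 of the 31, or 51.6%. It lay in 8.86% of all 32851 windows and in 15.9% of the 13630 windows of genes with enough counts to test. The measures differ: a factor counts if any of its windows matches, while the background shares here count single windows. A factor with more than 1 window, such as Mterf2, thus has more room for a match. The consensus site of NRF1, a further regulator of mitochondrial genes, was found for 4 of 31 factors (12.9%, against 9.1% of windows of tested genes). A site of YY1 (AANATGGCG) was found for 5 of 31 (16.1%, against 4.57%). Fewer factors held an E-box (CACGTG, 2 of 31, 9.55% of windows of tested genes), an ATF4 site (TGATGNAA, 1 of 31, 2.25%) or an ERR site (TCAAGGTCA, 0 of 31, 0.286%). A match describes letters in a window and is not evidence of binding.

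The windows of Polrmt, of the initiation factor gene Tfam and of Tefm are shown because these 3 hold the ETS core, with matches in capitals (CTTCCGG is the core read from the other strand). In Polrmt the ETS core is followed by a pair of overlapping NRF1 matches. The window of Tfb2m, the other initiation factor gene, held none of the 6 motifs.
Tefm, chr11:80142104-80142403, minus strand: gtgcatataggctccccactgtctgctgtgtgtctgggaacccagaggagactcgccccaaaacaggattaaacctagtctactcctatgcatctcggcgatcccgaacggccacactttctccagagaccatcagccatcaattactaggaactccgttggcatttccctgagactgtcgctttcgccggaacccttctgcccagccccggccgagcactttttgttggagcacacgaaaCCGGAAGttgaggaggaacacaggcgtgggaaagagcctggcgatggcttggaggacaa
Polrmt, chr10:79746532-79746831, minus strand: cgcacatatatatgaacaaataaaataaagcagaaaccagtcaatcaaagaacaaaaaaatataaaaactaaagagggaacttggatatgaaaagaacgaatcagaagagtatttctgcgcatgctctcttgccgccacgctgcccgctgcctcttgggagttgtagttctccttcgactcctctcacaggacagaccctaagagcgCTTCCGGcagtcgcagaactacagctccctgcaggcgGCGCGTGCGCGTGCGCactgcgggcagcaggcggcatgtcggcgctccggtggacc
Tfam, chr10:71237995-71238294, minus strand: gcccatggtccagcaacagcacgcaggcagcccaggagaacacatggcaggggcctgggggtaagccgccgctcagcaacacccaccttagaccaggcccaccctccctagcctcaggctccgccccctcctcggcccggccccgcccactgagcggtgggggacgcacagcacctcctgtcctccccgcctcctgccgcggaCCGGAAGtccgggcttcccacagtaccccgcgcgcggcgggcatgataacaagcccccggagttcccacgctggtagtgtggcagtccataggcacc

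The next windows belong to factors whose RNA changed, in either direction. Fastkd5, which was higher in knockouts, and Mterf4, which was lower, both hold 1 ETS core. The exons of both overlap another gene, Ubox5 for Fastkd5 and Sned1 for Mterf4, which limits their values as described below. Rexo2, which was higher, holds an E-box and an NRF1 match instead. The windows of Elac2, which had the largest rise, and of Mterf2, which had the second largest fall, held none of the 6 motifs.
Fastkd5, chr2:130629953-130630252, minus strand: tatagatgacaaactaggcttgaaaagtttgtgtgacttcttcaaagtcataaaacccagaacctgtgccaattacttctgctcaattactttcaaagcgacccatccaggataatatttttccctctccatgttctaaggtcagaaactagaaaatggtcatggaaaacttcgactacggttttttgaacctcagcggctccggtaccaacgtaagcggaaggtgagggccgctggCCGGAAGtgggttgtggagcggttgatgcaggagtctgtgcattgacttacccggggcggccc
Mterf4, chr1:93305830-93306129, minus strand: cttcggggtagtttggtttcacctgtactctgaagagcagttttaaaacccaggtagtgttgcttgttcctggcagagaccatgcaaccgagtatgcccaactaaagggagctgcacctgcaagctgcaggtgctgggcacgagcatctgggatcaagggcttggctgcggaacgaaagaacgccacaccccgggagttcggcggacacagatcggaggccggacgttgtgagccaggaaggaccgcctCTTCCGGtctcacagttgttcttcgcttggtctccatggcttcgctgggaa
Rexo2, chr9:48480562-48480861, minus strand: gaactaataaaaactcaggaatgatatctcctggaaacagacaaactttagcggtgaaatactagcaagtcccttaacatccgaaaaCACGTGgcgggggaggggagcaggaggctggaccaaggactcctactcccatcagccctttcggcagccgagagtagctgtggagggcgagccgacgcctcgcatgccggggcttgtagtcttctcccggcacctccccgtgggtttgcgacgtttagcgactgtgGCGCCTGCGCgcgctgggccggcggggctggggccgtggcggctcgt

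Of the 7 factors that rose and had a window, 3 held the ETS core, as did 3 of the 7 that fell and 9 of the 16 that did not pass the test.

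In crude mitochondria of knockout hearts the RNAs of these factors changed moderately in both directions, and the polymerase core was not among the changes. The libraries hold the part of these nuclear-encoded RNAs that came with the mitochondria. A changed level in the heart and a changed part kept in the preparation therefore cannot be told apart. Of 34 tested factors 9 rose and 7 fell (edgeR's quasi-likelihood test, Benjamini-Hochberg adjusted p under 0.05 over all genes), against 26.1% of all tested genes that rose and 23.9% that fell. Those shares of the factors, 26.5% and 20.6%, lie near the background, so the count of changes does not set the factors apart. Their median log2 fold change was 0.07, against -0.01 over all genes tested. The median size of change, whatever its sign, was 0.23 log2 units for the factors and 0.38 for all tested genes. The largest rise was 1.69-fold and the largest fall 2.02-fold, and 33 of the 34 changed by less than 1 log2 unit. All of this is relative to nuclear RNA, which sets the TMM scaling. When library totals alone set the scale, the median over all tested genes moved to 0.97 log2 units, 31 factors rose (78.6% of all tested genes did) and 0 fell in edgeR, against 2.68% of all genes (0 at an unadjusted p under 0.05 as well). DESeq2 was run only with its own size factors, where 5 factors, and 3964 genes over all, fell at an adjusted p under 0.05.

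**Figure D1:**
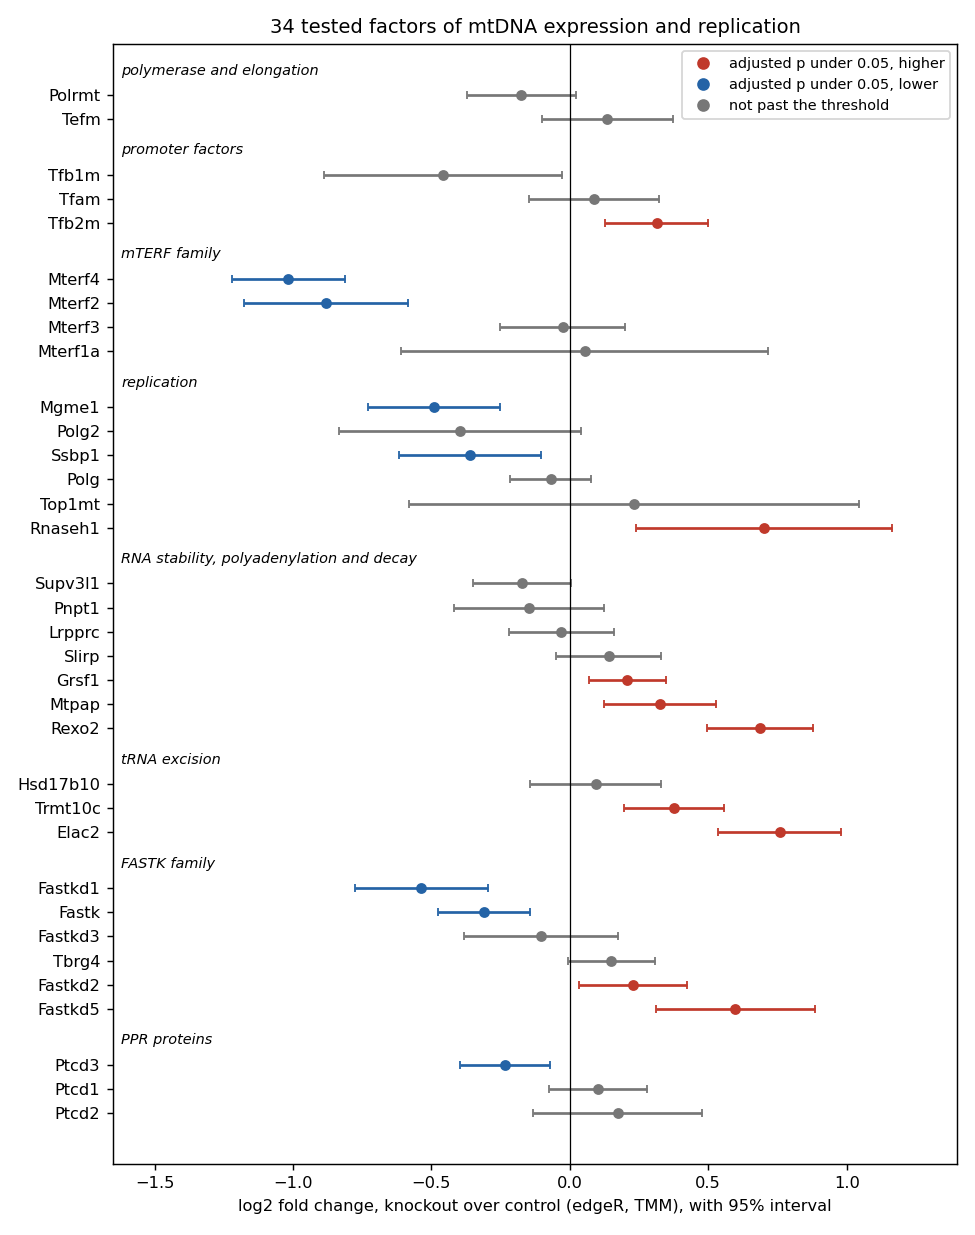
Log2 fold change of the 34 tested factors, knockout over control, grouped by role; points are edgeR estimates and bars their 95% intervals. Elac2 of tRNA excision is highest at 0.76, Mterf4 and Mterf2 of the mTERF family are lowest at -1.02 and -0.88, and Tefm, Polrmt and Tfam did not pass the test.

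The RNAs of the polymerase and of its elongation factor did not pass the test. Tefm, the gene deleted in heart muscle cells, measured 5.80, 6.13, 5.87 and 7.18 CPM in controls 1 to 4 and 6.35, 6.74, 6.64 and 7.72 CPM in knockouts 1 to 4. The groups overlapped, since control 4 was above 3 of the knockouts (log2 fold change 0.14, SE 0.11, adjusted p = 0.324). Tefm (ENSMUSG00000046909.9) spans bases 80136678 to 80142175 of chromosome 11 on the minus strand of GRCm38. Its count is for the whole gene and not per exon, so it does not check the deletion. Why the level did not fall was not tested. Polrmt, which encodes the polymerase, measured 15.3, 13.7, 13.7 and 12.6 CPM in controls and 12.5, 11.9, 13.6 and 10.9 CPM in knockouts. Most knockouts lay below the controls but the groups overlapped (-0.18, SE 0.09, 95% interval -0.37 to 0.02, adjusted p = 0.13). The interval leaves room for a fall of at most 0.37 log2 units on this scale.

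Among the promoter factors Tfb2m alone passed. TFB2M opens the promoter for the polymerase, and its RNA rose 1.24-fold (0.31, SE 0.09, adjusted p = 0.00777), from 9.02 to 10.5 CPM over the controls to 11.5 to 12.7 CPM over the knockouts, with no overlap. The predicted gene Gm1818 shares 39.6% of the 50-base words of the Tfb2m transcript and stood at 0.27 (SE 0.11, adjusted p = 0.0518), so reads could be split between them. Tfam, whose protein bends promoter DNA and packages the mitochondrial genome, measured 17.0 ± 1.29 CPM in the control group and 17.99 ± 2.88 CPM among knockouts (SD, n = 4 each; 0.09, SE 0.11, adjusted p = 0.539). Tfb1m, a methyltransferase of the small-subunit rRNA and paralog of Tfb2m, stood at -0.46 (SE 0.20) and did not pass (adjusted p = 0.0722), but passed without control replicate 2 (-0.57, adjusted p = 0.0351) and without knockout replicate 4 (-0.61, adjusted p = 0.0266). The difference between the paralogs, the log2 ratio of Tfb2m to Tfb1m, lay 0.78 above the controls in knockouts (SE 0.20) and did not pass a two-sided exact test that permutes the 8 libraries (p = 0.0571, or 0.24 after adjustment over 6 ratios). Its groups overlapped at control replicate 2, which stood at 2.50 between knockout 4 at 2.47 and knockout 3 at 2.85. Without that control the difference was 0.93 (exact permutation p = 0.0286, unadjusted). Leaving out the control that overlapped separates the groups, so this p adds no support. With any other library left out the unadjusted permutation p was 0.0571 to 0.0857.

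The mTERF family held the largest falls of all the factors. MTERF proteins are helical-repeat proteins that bind nucleic acids; MTERF4 brings a methyltransferase to the large mitochondrial ribosomal subunit. Mterf4 (ENSMUSG00000026273.13, chromosome 1, 93299211 to 93305915, minus strand) measured 12.8, 13.3, 13.2 and 13.5 CPM in controls and 7.57, 5.90, 6.12 and 6.59 CPM in knockouts. Every knockout lay far below every control, and knockout 1 was the highest of the 4 (-1.02, SE 0.10, adjusted p = 1.03e-06; -1.10 without it). Mterf4 shares 1855 exonic bases with Sned1 on the opposite strand, and Sned1 fell more steeply (-2.31, SE 0.09, adjusted p = 2.98e-10). The sources used here do not say whether strand was kept, and the part of Sned1 reads in the value of Mterf4 was not tested; the transcript with the longest coding sequence of Mterf4 shares no 50-base word with another gene.

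Mterf2 (ENSMUSG00000049038.3, chromosome 10, 85119433 to 85128027, minus strand) measured 14.1, 11.8, 12.5 and 12.1 CPM in controls and 8.18, 4.83, 7.24 and 7.31 CPM in knockouts. The groups did not overlap, and knockout 2 was the lowest (-0.88, SE 0.14, adjusted p = 0.000115). Tmem263, which overlaps Mterf2 over 398 exonic bases on the other strand, stood at -0.06 (SE 0.08). Mterf3 differed little between groups, with 8.53 ± 0.660 CPM in the control group and 8.37 ± 0.940 CPM among knockouts (SD, n = 4 each; -0.03, SE 0.10). The remaining members are a near-identical pair: the coding sequences of Mterf1a and Mterf1b match at 1126 of 1137 aligned bases (99.03%), and 61% of the 50-base words of each transcript are in the other. Their counts were low, 56 in controls and 97 in knockouts for Mterf1a and 23 and 43 for Mterf1b, and single values of the pair are uncertain. Mterf1a stood at 0.05 (SE 0.31, 95% interval -0.61 to 0.72), an interval that leaves out the values of Mterf4 and Mterf2 but takes in changes as large as those of Fastkd1 or Fastkd5 below.

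Replication factors moved in different directions. MGME1 is an exonuclease that trims DNA ends during replication, and SSBP1 coats single-stranded mtDNA. Mgme1 measured 6.90, 6.08, 6.86 and 8.12 CPM in controls and 5.12, 4.63, 5.19 and 4.98 CPM in knockouts, and Ssbp1 measured 4.53, 5.61, 5.26 and 4.78 CPM in controls and 4.05, 3.76, 4.27 and 3.62 CPM in knockouts. For both genes the lowest control lay above the highest knockout. Mgme1 fell to 0.712 of its control level (-0.49, SE 0.11, adjusted p = 0.00225), and Ssbp1 to 0.779 (-0.36, SE 0.12, adjusted p = 0.0221). The call of Ssbp1 was lost without control replicate 2 or 3 or knockout replicate 2 or 4 (largest adjusted p = 0.0698) and with DESeq2 (adjusted p = 0.07). Snx5, which overlaps Mgme1 over 206 exonic bases on the other strand, rose (0.23, SE 0.08). Gm12115 shares 11.4% of the 50-base words of the Ssbp1 transcript, so reads could be split between them. It held 632 counts in controls and 1197 in knockouts, against 384 and 499 for Ssbp1, and stood at 0.19 (SE 0.12, edgeR adjusted p = 0.195).

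RNase H1 removes RNA from RNA-DNA hybrids, including the primers of mtDNA. Rnaseh1 measured 1.74, 1.41, 0.996 and 1.59 CPM in controls and 1.68, 2.75, 2.22 and 2.68 CPM in knockouts. Knockouts 2 to 4 were above all controls, while knockout 1 lay among them (0.70, SE 0.22, adjusted p = 0.0147; 0.81 without knockout 1). Without control replicate 3, its lowest library, the call of Rnaseh1 was lost (0.56, adjusted p = 0.0518). The polymerase subunits did not pass: Polg, the catalytic subunit, stood at -0.07 (SE 0.07) and Polg2, the accessory subunit, at -0.40 (SE 0.20, adjusted p = 0.122), with 31 to 56 counts per library. Top1mt, the mitochondrial topoisomerase, held 6 to 37 counts per library and stood at 0.23 (SE 0.38) with a wide 95% interval of -0.58 to 1.04.

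**Figure D2:**
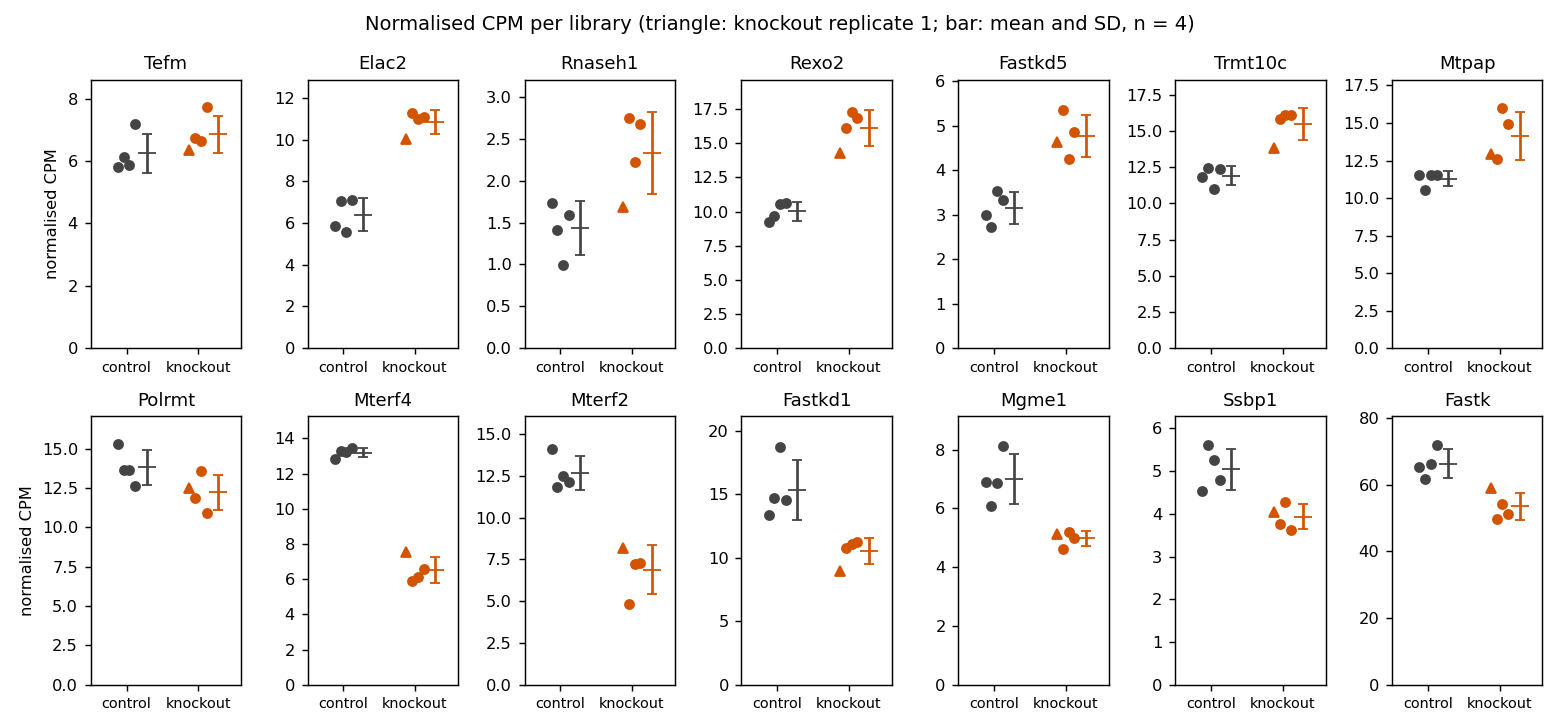
Normalised CPM in each of the 8 libraries for Tefm, Polrmt and the 6 largest rises and 6 largest falls that passed the test; dots are libraries, the triangle is knockout replicate 1, and bars give mean and SD (n = 4). Elac2 and Mterf4 show a wide gap between groups, while Tefm, Polrmt and Rnaseh1 overlap.

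Both cutting steps that free tRNAs from the precursor were represented among the rises. ELAC2 cuts at the 3' end of each tRNA, and TRMT10C and HSD17B10 belong to the mitochondrial RNase P that cuts at the 5' end. Elac2 (ENSMUSG00000020549.14, chromosome 11, 64979038 to 65002069, plus strand) measured 5.85, 7.07, 5.59 and 7.13 CPM in controls and 10.02, 11.3, 10.99 and 11.1 CPM in knockouts. The knockouts lay together and well above the controls, a rise of 1.69-fold (0.76, SE 0.10, adjusted p = 3.51e-05; 0.70 to 0.81 without any 1 library). Trmt10c measured 11.9, 12.5, 11.01 and 12.4 CPM in controls and 13.8, 15.8, 16.1 and 16.1 CPM in knockouts. All knockouts were above all controls, and knockout 1 was the closest to them (0.38, SE 0.08, adjusted p = 0.00191). Its partner Hsd17b10 did not pass (0.09, SE 0.11, adjusted p = 0.504), with knockout 1 the highest library at 31.7 CPM and the other knockouts at 20.8 to 25.0. The log2 ratio of Trmt10c to Hsd17b10 differed by 0.29 (SE 0.18, exact permutation p = 0.2, adjusted p = 0.24). Without knockout replicate 1 it differed by 0.45 (exact permutation p = 0.0286, unadjusted). Over all fits with 1 library left out the unadjusted permutation p ran from 0.0286 to 0.371. Across all 8 libraries the partners were thus not shown to differ.

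Of the 7 factors of RNA stability, polyadenylation and decay 3 rose and none fell at the threshold, against 26.1% and 23.9% of all tested genes. REXO2 degrades very short RNAs, the last step of RNA turnover. Rexo2 (ENSMUSG00000032026.7, chromosome 9, 48468512 to 48480623, minus strand) measured 9.22, 9.69, 10.6 and 10.6 CPM in controls and 14.3, 16.1, 17.3 and 16.9 CPM in knockouts. The groups were far apart, a rise of 1.61-fold (0.69, SE 0.09, adjusted p = 2.27e-05). Mtpap, the poly(A) polymerase, measured 11.5, 10.5, 11.5 and 11.5 CPM in controls and 13.0, 12.6, 16.0 and 14.9 CPM in knockouts. Knockouts 3 and 4 were the higher ones, and the lowest knockout was still above the highest control (0.33, SE 0.09, adjusted p = 0.0105). Gm26865, on the other strand over 1147 exonic bases of Mtpap, stood at -0.17 (SE 0.21). Grsf1, an RNA-binding protein of mitochondrial RNA granules, rose from 57.0 ± 1.001 CPM to 65.8 ± 2.97 CPM (SD, n = 4 each; 0.21, SE 0.07, adjusted p = 0.0163).

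The subunits of the stabilising complex and of the degradosome did not pass. Lrpprc, which protects mitochondrial mRNAs, measured 41.9 ± 0.443 CPM in the control group and 41.1 ± 5.48 CPM among knockouts (SD, n = 4 each; -0.03, SE 0.09, 95% interval -0.22 to 0.16). Knockouts spread around the controls, with knockout 1 highest at 48.1 CPM and knockout 2 lowest at 35.7. Its partner Slirp stood at 0.14 (SE 0.09, adjusted p = 0.209), but its gene model overlaps Snw1 over 2914 exonic bases on the other strand, and Snw1 rose (0.26, SE 0.08). The helicase Supv3l1 (-0.17, SE 0.08, adjusted p = 0.0938) and the nuclease Pnpt1 (-0.15, SE 0.13, adjusted p = 0.351) form the degradosome. In Supv3l1 the highest knockout, at 10.3 CPM, lay below the lowest control, at 10.5. The log2 ratios of the remaining pairs did not pass an exact permutation test: Slirp to Lrpprc differed by 0.18 (SE 0.08, p = 0.114), Supv3l1 to Pnpt1 by -0.01 (SE 0.11, p = 0.914), Polg2 to Polg by -0.29 (SE 0.20, p = 0.171) and Polrmt to Tefm by -0.31 (SE 0.17, p = 0.143). Without control replicate 4 the ratio of Polg2 to Polg differed by -0.41, and without knockout replicate 1 that of Slirp to Lrpprc by 0.23 (exact permutation p = 0.0286 for each, unadjusted). These were the smallest p-values among fits with 1 library left out. The largest were 0.371 for Polg2 to Polg and 0.2 for Slirp to Lrpprc. Over all 8 libraries and adjusted over the 6 ratios the p-values were 0.24, 0.914, 0.24 and 0.24, and the smallest p that 70 relabelings of 4 against 4 allow is 0.0286.

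The FASTK family of RNA-binding proteins, which shape single mitochondrial transcripts, split in both directions. FASTKD5 is needed at transcript junctions that carry no tRNA. Fastkd5 measured 3.004, 2.72, 3.54 and 3.34 CPM in controls and 4.63, 5.35, 4.24 and 4.85 CPM in knockouts. The groups did not overlap (0.60, SE 0.13, adjusted p = 0.00193). Fastkd5 lies inside the model of Ubox5 on the same strand, with 1966 exonic bases in common, and Ubox5 stood at 0.18 (SE 0.18, adjusted p = 0.438). Ubox5 also holds 73.0% of the 50-base words of the Fastkd5 transcript, so the value of Fastkd5 depends on how shared reads were assigned, which the sources used here do not say. Fastkd2, needed for the large-subunit rRNA, passed narrowly (0.23, SE 0.09, adjusted p = 0.0494). Its call held only without control replicate 4 or knockout replicate 3 among the 8 fits with 1 library left out, and 0.147, without control replicate 3, was its largest adjusted p. It was also lost with DESeq2 (adjusted p = 0.0797) and with RLE factors in edgeR (adjusted p = 0.0541).

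Fastkd1 and Fastk, the founding member, moved the other way. Fastkd1 measured 13.3, 14.7, 18.7 and 14.5 CPM in controls and 8.99, 10.8, 11.1 and 11.2 CPM in knockouts. Control 3 was high and knockout 1 low, and the groups did not overlap (-0.54, SE 0.11, adjusted p = 0.00118; -0.43 to -0.60 without any 1 library). Fastk measured 65.4, 61.8, 66.2 and 72.1 CPM in controls and 59.0, 49.7, 54.1 and 51.2 CPM in knockouts. It fell to 0.806 of its control level (-0.31, SE 0.08, adjusted p = 0.00402), and its opposite-strand neighbour Slc4a2, with 1141 shared exonic bases, stood at 0.01 (SE 0.08). Fastkd3 (-0.10, SE 0.13) and Tbrg4, also known as FASTKD4 (0.15, SE 0.07, adjusted p = 0.1), did not pass.

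Of the pentatricopeptide-repeat proteins, Ptcd3, which acts with the small mitochondrial ribosomal subunit, fell slightly (-0.23, SE 0.08, adjusted p = 0.0189), from 21.9 ± 0.879 CPM to 18.7 ± 1.302 CPM (SD, n = 4 each). Its call was lost without control replicate 3 or knockout replicate 2 or 3 (largest adjusted p = 0.0621) and with DESeq2 (adjusted p = 0.056). Ptcd1 stood at 0.10 (SE 0.08). Ptcd2 stood at 0.17 (SE 0.14) with a wide spread in knockouts, from 9.29 to 16.3 CPM, and passed without knockout replicate 2 (0.30, adjusted p = 0.0494).

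In 15 of the 34 tested factors the normalised CPM of the groups did not overlap, against 45.4% of all tested genes (23.9% higher and 21.5% lower in knockouts). Calls of 12 factors, 7 higher and 5 lower, held in all 8 fits that left out 1 library. The share of all tested genes whose calls held in this way was not determined, so this count does not set the factors apart. The authors' deposited table calls 8 of the 35 factors higher and 5 lower at an adjusted p under 0.05, where it calls 19% of its 24245 features with an adjusted p higher and 16.4% lower. Among its values are 0.77 for Elac2, 0.70 for Rexo2 and -0.99 for Mterf4.

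**Figure D3:**
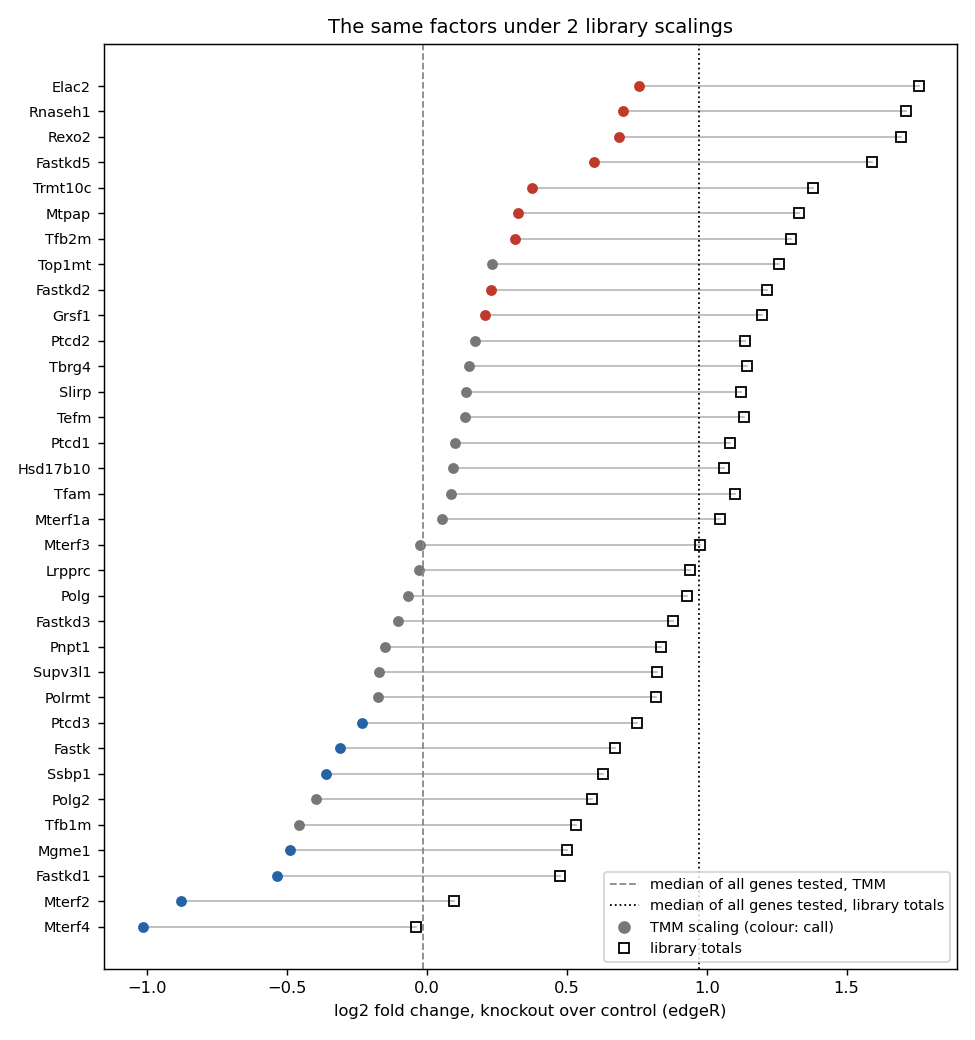
Log2 fold change of each tested factor under TMM scaling (filled, coloured by call) and under library totals (open squares); vertical lines mark the medians of all tested genes, -0.01 and 0.97. Each factor lies higher under library totals, where Mterf4 stands at -0.04 and Elac2 at 1.76.

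Levels were compared between factors only per length, as normalised CPM per kb of the transcript with the longest coding sequence. In controls the order ran over a wide range. Fastk was highest at 35.1 ± 2.25 CPM per kb, followed by Hsd17b10 at 24.0 ± 1.57 and Grsf1 at 22.4 ± 0.395 (SD, n = 4 each). Mterf4, Lrpprc and Rexo2 came next at 9.66, 9.55 and 9.31. Tefm stood at 4.77 ± 0.488, Tfam at 4.07 ± 0.309, Tfb2m at 3.98 ± 0.282 and Polrmt at 3.68 ± 0.294 CPM per kb (SD, n = 4 each). These parts of the transcription complex lay mid-list, at ranks 15 to 22 of 35. Factors of other steps lay in the same range, such as Supv3l1 at 4.27 and Mtpap at 4.25, so their closeness does not set them apart. The lowest were Rnaseh1 at 0.987, Mterf1a at 0.529, Top1mt at 0.324 and Mterf1b at 0.223 CPM per kb. Of the 34 pairs of neighbours in this order 28 overlapped between libraries; the others were separated, as below Fastk and below Grsf1. In knockouts Mterf4 moved from rank 4 to 16 of 35 and Mterf2 from 9 to 17, while Elac2 moved from 25 to 19 and Rexo2 from 6 to 4. The level of Slirp is uncertain, since 93.7% of the 50-base words of its chosen transcript of 2701 bases are shared with other genes. The ranks of Mterf4 are uncertain too. Its gene model shares 1855 exonic bases with Sned1, more than the 1366 bases of its chosen transcript, and the part of Sned1 reads was not tested.

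**Figure D4:**
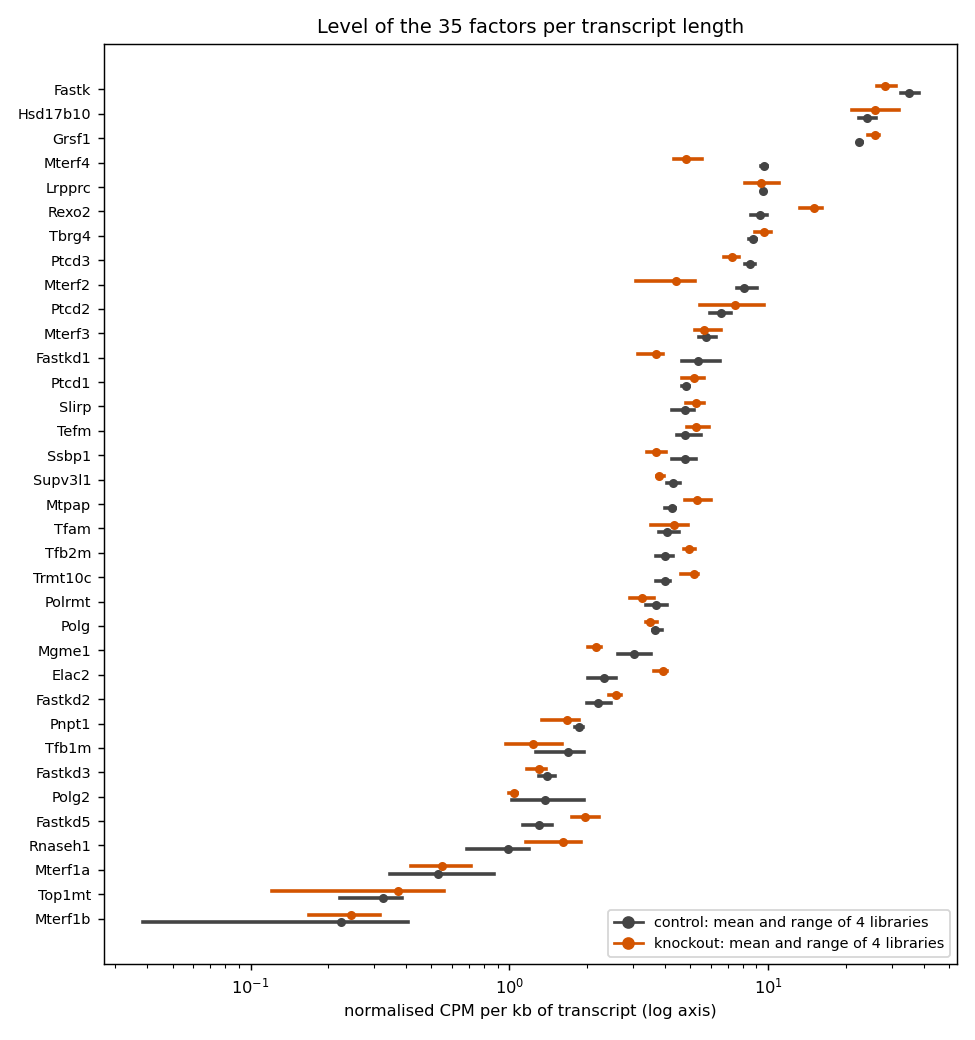
Normalised CPM per kb of transcript on a log axis for all 35 factors, ordered by the control mean; dots are group means and lines the range of 4 libraries. Fastk, Hsd17b10 and Grsf1 lead at 22.4 to 35.1 in controls, and Mterf1b is lowest at 0.223.

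Other genes of the pathway, from lists assembled by function, also moved in both directions. Of 13 further genes of mtDNA maintenance 3 rose and 4 fell, against 26.1% and 23.9% of all tested genes. Apex1, an endonuclease of base excision repair, rose 1.93-fold (0.95, SE 0.10), Atad3a, a membrane protein near nucleoids, 1.59-fold (0.67, SE 0.09) and the ligase gene Lig3 1.16-fold (0.22, SE 0.07). The call of Lig3 was lost without control replicate 1 or 3 or knockout replicate 4 (largest adjusted p = 0.0719). Ung, the uracil-DNA glycosylase that acts in the same repair path as Apex1, fell 4.46-fold (-2.16, SE 0.21; -1.13 with library totals, where it was still called). The exonuclease gene Exog (-0.75, SE 0.16) and Twnk, the helicase of the replication fork (-0.32, SE 0.09), fell as well, and both turned positive with library totals (0.24 and 0.68).

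Of 16 genes of mitochondrial nucleotide supply 3 rose and 9 fell, against 26.1% and 23.9% of all tested genes. The pyrimidine nucleotide carrier gene Slc25a33 (0.81, SE 0.14), the thymidine kinase gene Tk2 (0.55, SE 0.12) and Nt5m (0.33, SE 0.11) rose, but the call of Nt5m was lost without control replicate 1 or 2 or knockout replicate 3 (largest adjusted p = 0.0767). Mpv17, an inner-membrane protein whose loss depletes mtDNA, fell 2.22-fold (-1.15, SE 0.08), the dUTPase gene Dut 2.62-fold (-1.39, SE 0.19) and the adenylate kinase gene Ak3 1.51-fold (-0.59, SE 0.08). Of 32 genes of rRNA and tRNA modification or maturation 13 rose and 4 fell, against 26.1% and 23.9% of all tested genes. Trnt1, which adds the CCA end to tRNAs, rose 1.92-fold (0.94, SE 0.08), Pde12, a poly(A) nuclease, 1.71-fold (0.77, SE 0.09) and the methyltransferase gene Nsun2 1.51-fold (0.60, SE 0.08). Osgepl1 (-1.08, SE 0.09), Mrm2 (-0.97, SE 0.14) and Trmt5 (-0.64, SE 0.18), which modify tRNA or rRNA, fell. The groups of Trmt5 overlapped, since knockout 1, at 11.5 CPM, lay among the controls at 9.96 to 12.8 (-0.89 without knockout 1). With library totals the 6 named genes that fell stood between -0.40 and 0.39, where Ak3, at 0.39, was called as a rise (adjusted p = 0.0188).

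Of 10 upstream regulators 1 rose and 3 fell, against 26.1% and 23.9% of all tested genes. Myc measured 0.474, 0.314, 0.443 and 1.05 CPM in controls and 5.62, 11.8, 12.6 and 11.5 CPM in knockouts. Knockout 1 was at about the middle of the gap between the controls and the other knockouts (17.9-fold; 4.16, SE 0.33). The coactivator genes Ppargc1b (-0.91, SE 0.14) and Ppargc1a (-0.39, SE 0.14) and the lysosomal regulator gene Tfeb (-0.39, SE 0.09) fell, and with library totals these 3 stood at 0.04, 0.57 and 0.60. The groups of Ppargc1a overlapped, since knockout 1, at 63.0 CPM, lay among the controls, and its value ran from -0.54 without knockout replicate 1 to -0.25 without knockout replicate 2. The call of Ppargc1a was lost without control replicate 1 or 3 or knockout replicate 4 (largest adjusted p = 0.0703). Nrf1 (0.02, SE 0.11) and Gabpa (-0.18, SE 0.08, adjusted p = 0.0841), whose proteins recognise the NRF1 and ETS sites described above, did not pass. Gabpa passed without knockout replicate 1 (-0.26, adjusted p = 0.00506).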

How the data were processed

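Total RNA of crude heart mitochondria from 4 control and 4 knockout mice had been made into Illumina TruSeq libraries and sequenced in paired ends on a MiSeq, per the labels' protocols. The authors deposited raw counts for each gene, as whole numbers. The submitters' processing notes list DESeq2 1.14.1, R 3.3.2, featureCounts, bedtools, SAMtools 1.3.1, Bowtie2 and mm10, with no role or order. The authors' deposited table gives log2 fold changes and p-values with settings not given in the sources used here.

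Counts were fitted with edgeR 4.0.16 in R 4.3.3 (quasi-likelihood F test on genotype, TMM scaling, genes kept by filterByExpr at a minimum count of 10) with Benjamini-Hochberg adjustment at 0.05 over 17891 genes. Controls had TMM factors of 0.689 to 0.733 and knockouts of 1.03 to 1.61. Each standard error is the absolute fold change in log2 units divided by the square root of F. Ratios of 2 factors used counts plus 0.5. Alternatives were DESeq2 1.42.0, library totals, RLE factors, all genes unfiltered, a block for the replicate number, nuclear genes alone, each library left out, and 5 added to counts in ratios.

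The factors and lists were chosen with earlier results of these data known. Values per library are given for Tefm, Polrmt and the 6 largest called rises and 6 largest called falls; other lists give up to 3 called genes by smallest p in each direction. Positions and lengths are from GENCODE M21 (GRCm38), whose ID versions equal those of the files for 28 of 35 factors, and promoter windows are from RefSeq. Counts were also simulated with 1 dispersion for all genes and the same mean profile in both groups (17916 genes tested). There edgeR called 58% of the genes made to change 1.5-fold, 96% of those at 2-fold and 9 unchanged genes. In that setting changes of 1.5-fold or less were often missed. The simulation did not copy the shift in the share of mtDNA RNA or the spread among knockouts. Its rates therefore do not give those of these data. No replicates were alike within sampling noise (chi-square per degree of freedom 2.56 to 140). Figures were drawn with matplotlib 3.10.9.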

Additional observations from a re-analysis of the deposited data

Results flagged for a closer look

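Of 70 sets of 4 libraries (35 factors in 2 groups) 3 held a library that lay apart from the other 3 by Dixon's criterion, and chance alone flags about 1 in 20. Polg measured 30.3 CPM in control replicate 3, against 28.03 to 28.4 in the other controls. Mtpap measured 10.5 CPM in control replicate 2, against 11.5 in the other controls. Trmt10c measured 13.8 CPM in knockout replicate 1, against 15.8 to 16.1 in the other knockouts; without that library its log2 fold change was 0.42 instead of 0.38.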

How the results depend on the processing

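With library totals as the only scaling 14546 genes were called, 31 factors rose and 0 fell, their median log2 fold change was 1.05, and 96.7% of all calls were higher, against 52.2%. Under that scaling these turned positive: Polrmt 0.82, Tfb1m 0.53, Mterf2 0.0948, Mterf3 0.97, Polg 0.93, Polg2 0.59, Ssbp1 0.63, Mgme1 0.50, Lrpprc 0.94, Pnpt1 0.84, Supv3l1 0.82, Fastk 0.67, Fastkd1 0.47, Fastkd3 0.88 and Ptcd3 0.75. Without a filter Mterf3 (0.0199) and Lrpprc (0.0157) changed sign, both near 0. With DESeq2 8 factors rose and 5 fell, with no filter 9 and 5, with RLE factors 8 and 7, and with nuclear genes alone 9 and 7. Over all genes, 4669 rose and 4274 fell in the main fit. These were 4589 and 3964 with DESeq2, 5240 and 4239 with no filter, 4627 and 4317 with RLE factors, and 4636 and 4249 with nuclear genes alone. Leaving out 1 library gave 7 to 9 rises, 5 to 7 falls and 8141 to 9625 called genes. In those fits Mterf1a ran from -0.11 to 0.41, Mterf3 from -0.11 to 0.0159, Hsd17b10 from -0.031 to 0.18, Lrpprc from -0.12 to 0.0354 and Top1mt from -0.0262 to 0.49. The log2 ratios ran from 0.69 to 0.93 (Tfb2m to Tfb1m), -0.41 to -0.10 (Polg2 to Polg), -0.42 to -0.20 (Polrmt to Tefm), 0.13 to 0.23 (Slirp to Lrpprc), -0.12 to 0.0295 (Supv3l1 to Pnpt1) and 0.19 to 0.45 (Trmt10c to Hsd17b10). With 5 added to each count the ratio of Tfb2m to Tfb1m was 0.78 (exact permutation p = 0.0286). The cause of these shifts was not tested. With the replicate number as a block 8 factors rose and 7 fell (4580 and 4253 over all genes), and the call of Fastkd2 was lost (0.23, adjusted p = 0.0536). Same-numbered libraries did not deviate together (correlations -0.0136 to 0.0497). Such correlations, from few libraries per group, cannot exclude that the animals were paired. Low counts limit Mterf1a, Mterf1b, Top1mt, Polg2 and Tfb1m, and also Rnaseh1, which held 110 counts in controls and 301 in knockouts.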
